A study of Mus musculus with 6 samples.

Results

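Hamp, Scara5, Orm3 and Cxcl1 were followed liver by liver in mice given gigantol or vehicle. They are 4 of the 332 genes of the table analysed here, taken by gene symbol. The livers came from 6 male Kunming mice, an outbred stock, that were 6 to 8 weeks old and weighed 20 to 28 g. The 3 gigantol mice had received gigantol, a bibenzyl of Dendrobium orchids that the series title calls a dual PPARα/γ agonist, by mouth at 10 mg/kg. The 3 vehicle mice had received the same volume of vehicle, and all livers were taken 4 h after dosing. Each library is 1 liver of 1 mouse, all carry 1 batch label, and the labels name no transgene, diet or fasting state. The titles of the samples carry the name of a human cell line, PANC1, whereas the tissue and organism labels and all 332 gene IDs are mouse, so the groups rest on the treatment labels.

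Hepcidin, the product of Hamp, is a small hormone that hepatocytes release into blood. It binds the iron exporter ferroportin and takes it off the cell surface, so that less iron leaves macrophages and enters from the gut. Transcription of Hamp is known to be driven by iron through bone morphogenetic proteins (BMP) and SMAD factors, and by inflammation through interleukin 6 and STAT3. Inflammation also raises acute-phase plasma proteins such as the orosomucoids, and hepatocytes and macrophages make neutrophil-attracting chemokines such as Cxcl1 under NF-kB control. These known routes are the reason for setting the 4 genes beside each other, and the question asked was whether Hamp went with the inflammatory genes from liver to liver.

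The 4 genes were chosen because they differed between the gigantol and vehicle livers, and the table itself holds only genes with an unadjusted p no larger than 0.0499 and a log2 fold change of 1.00 or more in size, both as the authors computed them. Their differences between groups are therefore given as a description with no test. Values were taken as CPM, reads scaled to the size of each library, a unit that was read from the values because the header names none. CPM are not divided by gene length, so levels were compared between livers and not between genes. The smallest steps between CPM values put the depth at about 21200000 to 26700000 reads per liver, which made a single read worth 0.0374 to 0.0471 CPM. Gigantol replicate 2 and vehicle replicate 1 stood apart more often than the other libraries. On the log2(CPM + 1) scale they lay more than 1 above or below both other livers of their group for 33 and 37 of 201 genes, against 0 to 8 for the others. None of the 12 hepatocyte markers fixed for a check of the tissue label was among the genes analysed here. The name acute-phase applies to 1 of the 4, since among them only Orm3 is on the list of acute-phase plasma proteins. Cxcl1 is a chemokine, Hamp a hormone and Scara5 a receptor.

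Hamp, Scara5 and Cxcl1 had higher means and Orm3 a lower mean in the gigantol livers. The ratios of the gigantol to the vehicle mean were 3.23 for Hamp, 2.50 for Scara5, 3.51 for Cxcl1 and 0.385 for Orm3. An FDR under 0.05 in the authors' deposited table, where adjustment ran over 13192 genes, was reached by 1 of the 4, Hamp. Of all rows 25.9% reached it, 10.2% as higher and 15.7% as lower. The gigantol livers did not overlap the vehicle livers for 3 of the 4, beside 72.0% of all rows. Hamp and Scara5 had every gigantol liver above every vehicle liver, as had 23.5% of rows, and Orm3 had every one below, as had 48.5%. limma, an empirical Bayes linear model, passed 55.2% of the 201 genes above a filter on low values at an adjusted p under 0.05 within the table, and no such call is used for the 4 genes. All these background shares come from rows selected on the same 6 libraries, so nothing is read from either count.

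**Figure D1:**
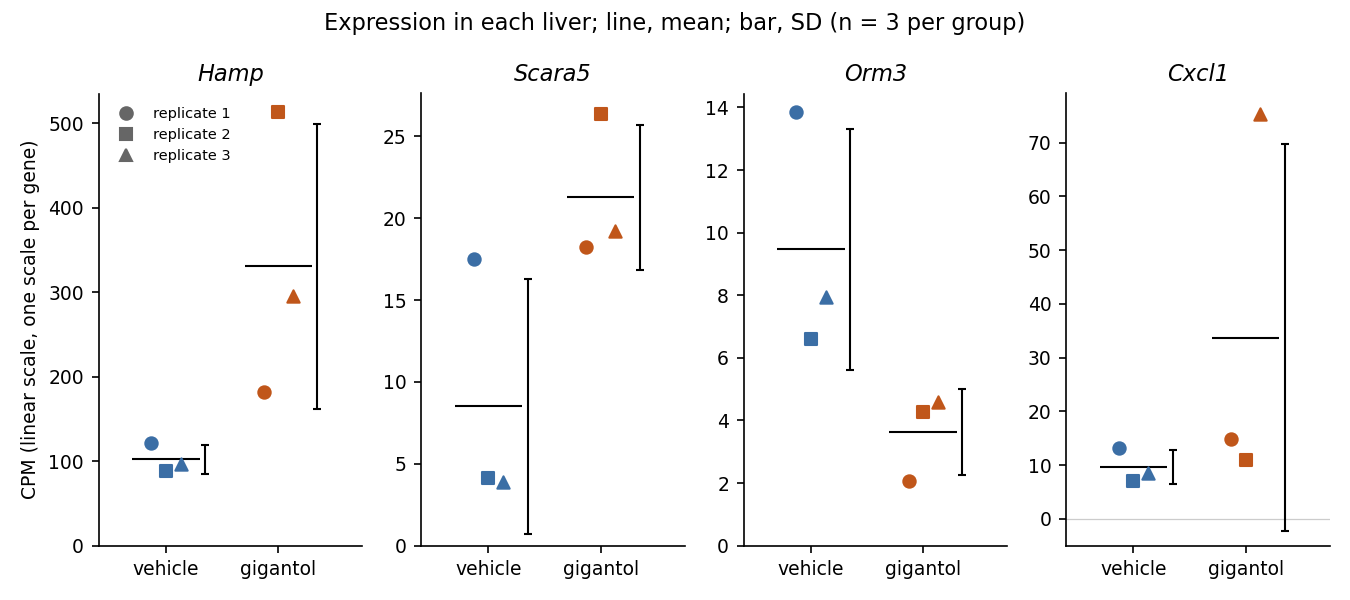
CPM of Hamp, Scara5, Orm3 and Cxcl1 in each of the 6 livers on a linear scale that differs between genes, with vehicle in blue, gigantol in orange and the replicate number as the symbol; lines are means and bars are SD (n = 3 per group). Vehicle replicate 1 comes close to the gigantol livers for Scara5 without overlapping them (17.5 CPM against a lowest gigantol value of 18.2 CPM), and the Cxcl1 mean is set by gigantol replicate 3 at 75.2 CPM.

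Hamp (ENSMUSG00000050440) is a protein-coding gene that the table places on the minus strand of chromosome 7 from 30641793 to 30643457, on a mouse build that no source used here names. It measured 183, 514 and 296 CPM in gigantol replicates 1 to 3 and 122, 88.7 and 96.4 CPM in vehicle replicates 1 to 3. Every gigantol liver was above every vehicle liver, and the lowest gigantol value was 1.50 times the highest vehicle value. The means were 331 ± 168 CPM with gigantol and 102 ± 17.4 CPM with vehicle (SD, n = 3 each). The limma difference, gigantol minus vehicle, was 1.57 ± 0.535 (SE) on the log2(CPM + 1) scale, and the authors' deposited table gave a log2 fold change of 1.70 and an FDR of 0.000702.

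The spread of Hamp was unequal between the groups. The highest gigantol liver was 2.82 times the lowest, whereas the vehicle livers spanned 1.37 times. Counting error was small beside this, since the values stood on 2222 to 10951 reads and their counting error was at most 2.12%. Such errors cover counting alone, because reads lacking molecular identifiers need not be independent. Gigantol replicate 2 weighed most on the mean, and without it the ratio of means went from 3.23 to 2.34. With any 1 liver left out the ratio stayed between 2.34 and 3.96.

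Mouse hepcidin has a near copy, Hamp2. Of 361 windows of 50 bases along the annotated Hamp transcripts (GENCODE M21), 60 (16.6%) also occur in Hamp2. No source used here says how the authors' counting treated reads that match both genes, and Hamp2 was not analysed here. Hamp reads are therefore uncertain to that extent.

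The promoter of Hamp is shown because it carries the letters of both known routes to the gene, iron and inflammation. The sequence is that of RefSeq on GRCm38.p6, a build other than the one of the table, at chr7:30944030-30944279 on the minus strand, and ends at the base before the RefSeq start site. Capitals mark the core of a BMP response element, GGCGCC, and a STAT3 palindrome, TTCNNNGAA.
Hamp: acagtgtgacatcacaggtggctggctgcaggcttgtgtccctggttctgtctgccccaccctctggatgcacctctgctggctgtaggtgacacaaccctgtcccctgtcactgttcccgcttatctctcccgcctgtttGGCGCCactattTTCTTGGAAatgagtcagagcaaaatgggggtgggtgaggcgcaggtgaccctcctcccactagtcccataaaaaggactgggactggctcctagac
The BMP core lies from −109 to −104 and the STAT3 palindrome from −97 to −89, counted from the start site, with 6 bases between them. Both strands were searched in windows of 300 bases, 250 before and 50 after each start site. Of 32851 such windows in RefSeq, 11.9% hold the BMP core, 8.30% the STAT3 letters and 0.645% both. A match describes the sequence and is not a measured binding site.

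**Figure D2:**
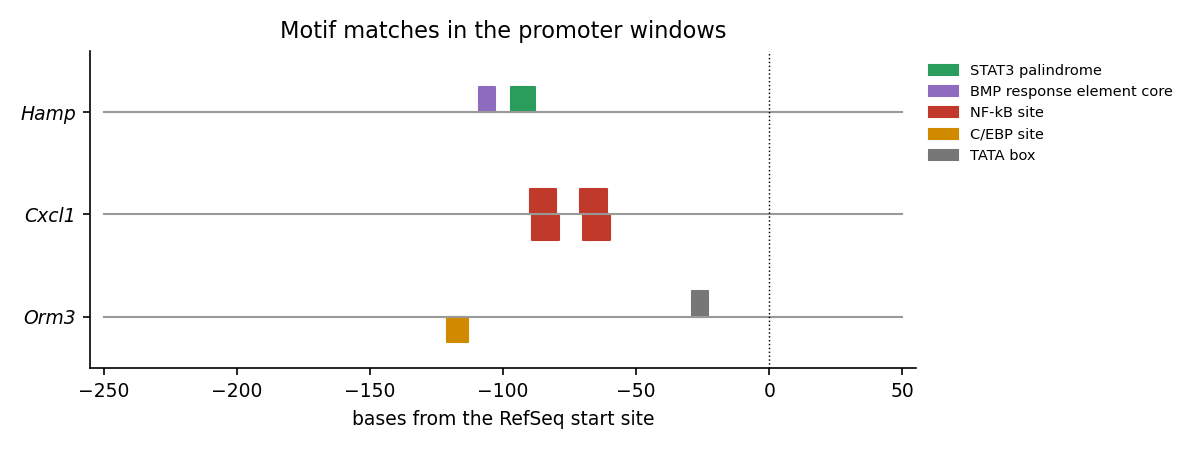
Positions of motif matches in the promoter windows of Hamp, Cxcl1 and Orm3, in bases from the RefSeq start site (dotted line); boxes above the line are on the gene's strand or are palindromes, and boxes below are on the other strand. Hamp holds a BMP core and a STAT3 palindrome next to each other, Cxcl1 overlapping NF-kB matches, and Orm3 a C/EBP match and a TATA box.

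Scara5 (ENSMUSG00000022032) encodes a scavenger receptor that takes up ferritin, the iron storage protein, and so brings iron into cells without transferrin. The table places it on the plus strand of chromosome 14 from 65903852 to 66002275. It measured 18.2, 26.3 and 19.2 CPM in gigantol replicates 1 to 3 and 17.5, 4.15 and 3.90 CPM in vehicle replicates 1 to 3. The groups did not overlap, but the lowest gigantol liver was 1.04 times the highest vehicle liver, vehicle replicate 1. That liver was 4.35 times the mean of the other vehicle livers.

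The Scara5 means were 21.3 ± 4.42 CPM with gigantol and 8.51 ± 7.77 CPM with vehicle (SD, n = 3 each). The limma difference was 1.50 ± 0.543 (SE) on the log2(CPM + 1) scale. Without vehicle replicate 1 the vehicle mean was 4.02 CPM and the ratio of means went from 2.50 to 5.28. With any other liver left out it was 1.97 to 2.68. The authors' deposited table gave a log2 fold change of 1.33 and an FDR of 0.360. The gigantol livers were close to each other, the highest being 1.45 times the lowest, so the wide spread of Scara5 was in the vehicle group, the reverse of Hamp.

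Orm3 (ENSMUSG00000028359) encodes an orosomucoid, an alpha-1-acid glycoprotein secreted by liver that rises in the acute-phase response. The table places it on the plus strand of chromosome 4 from 63274399 to 63277748. It measured 2.07, 4.27 and 4.59 CPM in gigantol replicates 1 to 3 and 13.9, 6.61 and 7.94 CPM in vehicle replicates 1 to 3. Every gigantol liver was below every vehicle liver, and the lowest vehicle liver was 1.44 times the highest gigantol liver. Orm3 thus went the other way from Hamp between the groups.

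The Orm3 means were 3.65 ± 1.37 CPM with gigantol and 9.47 ± 3.86 CPM with vehicle (SD, n = 3 each). The limma difference was −1.16 ± 0.417 (SE) on the log2(CPM + 1) scale, and the authors' deposited table gave a log2 fold change of −1.37 and an FDR of 0.0553, just above 0.05. With any 1 liver left out the ratio of means was 0.335 to 0.501. The values stood on 44 to 370 reads, with a counting error of up to 15.1% in the lowest liver. Of 724 windows of 50 bases along the Orm3 transcript, 26 (3.59%) also occur in another gene. All 26 are in Orm2 and 16 are in Orm1, the other orosomucoid genes, which were not analysed here.

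The promoter of Orm3 is shown beside that of Hamp because C/EBP factors are known to act with STAT3 on acute-phase genes. It is the RefSeq sequence on GRCm38.p6 at chr4:63355908-63356157, plus strand, with a C/EBP match in capitals.
Orm3: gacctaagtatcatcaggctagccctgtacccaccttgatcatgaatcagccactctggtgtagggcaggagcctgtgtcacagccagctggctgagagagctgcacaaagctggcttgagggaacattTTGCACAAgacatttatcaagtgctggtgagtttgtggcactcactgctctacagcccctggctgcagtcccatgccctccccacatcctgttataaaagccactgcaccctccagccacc
The match to TTNNGNAA runs from −121 to −114 on the other strand, and 40.7% of the RefSeq windows hold these letters. The STAT3 letters found in the Hamp window are not in this one. A TATA box, TATAAA, lies from −29 to −24 and is held by 13.6% of windows.

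Cxcl1 (ENSMUSG00000029380) encodes a chemokine that draws neutrophils through the receptor Cxcr2. The table places it on the plus strand of chromosome 5 from 91039100 to 91040974. It measured 14.8, 11.0 and 75.2 CPM in gigantol replicates 1 to 3 and 13.1, 7.12 and 8.50 CPM in vehicle replicates 1 to 3. The groups overlapped, since gigantol replicate 2 lay below vehicle replicate 1. Gigantol replicate 3 alone was far up, at 5.83 times the mean of the other gigantol livers.

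The Cxcl1 means were 33.7 ± 36.0 CPM with gigantol and 9.59 ± 3.16 CPM with vehicle (SD, n = 3 each), so the gigantol SD was larger than its mean. The limma difference was 1.24 ± 0.641 (SE) on the log2(CPM + 1) scale, and the authors' deposited table gave 1.81 with an FDR of 0.565. Without gigantol replicate 3 the gigantol mean was 12.9 CPM and the ratio of means went from 3.51 to 1.35, and the limma difference was then 0.42. The medians, 14.8 CPM with gigantol and 8.50 CPM with vehicle, differed 1.74 times. The values stood on 182 to 1851 reads, so counting error was at most 7.41%. None of 1970 windows of 50 bases of Cxcl1, and none of 6043 of Scara5, occurs in another annotated gene.

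The Cxcl1 promoter is shown for its NF-kB letters, the known inflammatory route to this gene. It is the RefSeq sequence on GRCm38.p6 at chr5:90890995-90891244, plus strand, with the NF-kB matches, 3 G, any 5 bases and then 2 C, in capitals.
Cxcl1: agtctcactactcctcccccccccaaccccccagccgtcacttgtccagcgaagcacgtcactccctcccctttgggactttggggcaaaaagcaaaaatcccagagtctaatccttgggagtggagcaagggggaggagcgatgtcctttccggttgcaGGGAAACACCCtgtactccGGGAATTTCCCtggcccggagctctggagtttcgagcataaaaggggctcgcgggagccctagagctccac
The matches run from −90 to −80 and from −71 to −61, each a pair of matches on opposite strands that overlap except for 1 base. These loose letters are common and occur in 50.8% of the RefSeq windows. The exact runs GGGAAACACC and GGGAATTTCC occur in 0.0974% and 0.0883%. Exact runs of this length are rare whatever their letters, so nothing is read from these shares. Neither the BMP core nor the STAT3 letters of the Hamp window are in this one, and the NF-kB letters are not in the Hamp or Orm3 window. An E-box, CACGTG, was also searched, is held by 7.15% of windows and is in none of the 3. RefSeq gave a promoter for 3 of the 4 genes, Scara5 being the other.

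**Figure D3:**
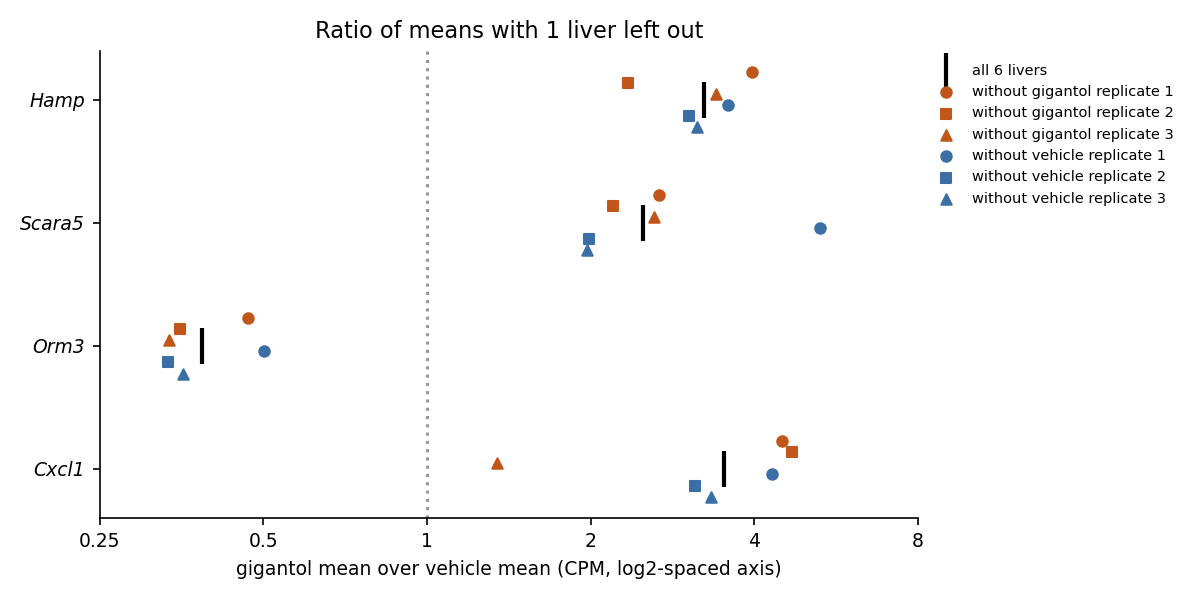
Ratio of the gigantol mean to the vehicle mean in CPM, on a log2-spaced axis, for all 6 livers (black bar) and with each liver left out in turn (symbols); the dotted line marks equal means. Hamp stays between 2.34 and 3.96, while Scara5 goes to 5.28 without vehicle replicate 1 and Cxcl1 to 1.35 without gigantol replicate 3.

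Whether Hamp went with the inflammatory genes was read from the order of the 3 livers inside each group, which the choice of the 4 genes did not use. No correlation over the 6 livers is given, because the groups form separate clusters of 3. In the gigantol livers Hamp was highest in replicate 2, then 3, then 1. Orm3 was highest in replicate 3, then 2, then 1, and Cxcl1 in replicate 3, then 1, then 2. The liver with the most Cxcl1 was thus not the one with the most Hamp, and the liver with the most Hamp, gigantol replicate 2, had the least Cxcl1 of the gigantol group. Scara5 had the same gigantol order as Hamp, but this match is not firm. Its gigantol replicates 3 and 1 were at 19.2 and 18.2 CPM, with counting errors of 4.60% and 5.08%.

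In the vehicle livers the picture was another. Hamp, Orm3 and Cxcl1 were all highest in replicate 1, then 3, then 2, while Scara5 was highest in replicate 1, then 2, then 3. Vehicle replicate 1 was thus the top vehicle liver for all 4 genes, at 1.32 times the mean of the other vehicle livers for Hamp, 1.68 times for Cxcl1, 1.91 times for Orm3 and 4.35 times for Scara5. The same liver was on top in the 20.2% of all rows with the vehicle order 1, 2, 3 and the 19.0% with the order 1, 3, 2 (ties included). Shared orders are common in this table. Of the other 331 rows, 77 (23.3%) had the gigantol order of Hamp, 62 (18.7%) its vehicle order and 10 (3.02%) both. None of Scara5, Orm3 and Cxcl1 was among those 10. Orm3 was left out by gigantol replicates 3 and 2, at 4.59 and 4.27 CPM on 113 and 91 reads. Scara5 was left out by vehicle replicates 2 and 3, at 4.15 and 3.90 CPM on 106 and 90 reads. Each gap is smaller than the counting error of either value (9.41% to 10.5%), so these mismatches of Orm3 and Scara5 are not resolved.

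A distance gave these likenesses a size. It was taken as the root mean square difference over the 6 livers between 2 genes' log2(CPM + 1) deviations from their group means, and the median distance from Hamp to the 200 other genes that passed the filter on low values was 0.56. Orm3 was at 0.31, rank 17 of 200 from the nearest. Scara5 was at 0.57, rank 106, and Cxcl1 at 1.00, rank 186. The distance is not scaled to a gene's spread, and that of Cxcl1 was wide, so Cxcl1 was far from most genes, at a median of 0.90. Counted from Cxcl1, Hamp was at rank 130 of 200. Orm3 was nearer to Hamp than most genes although its group means went the opposite way.

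**Figure D4:**
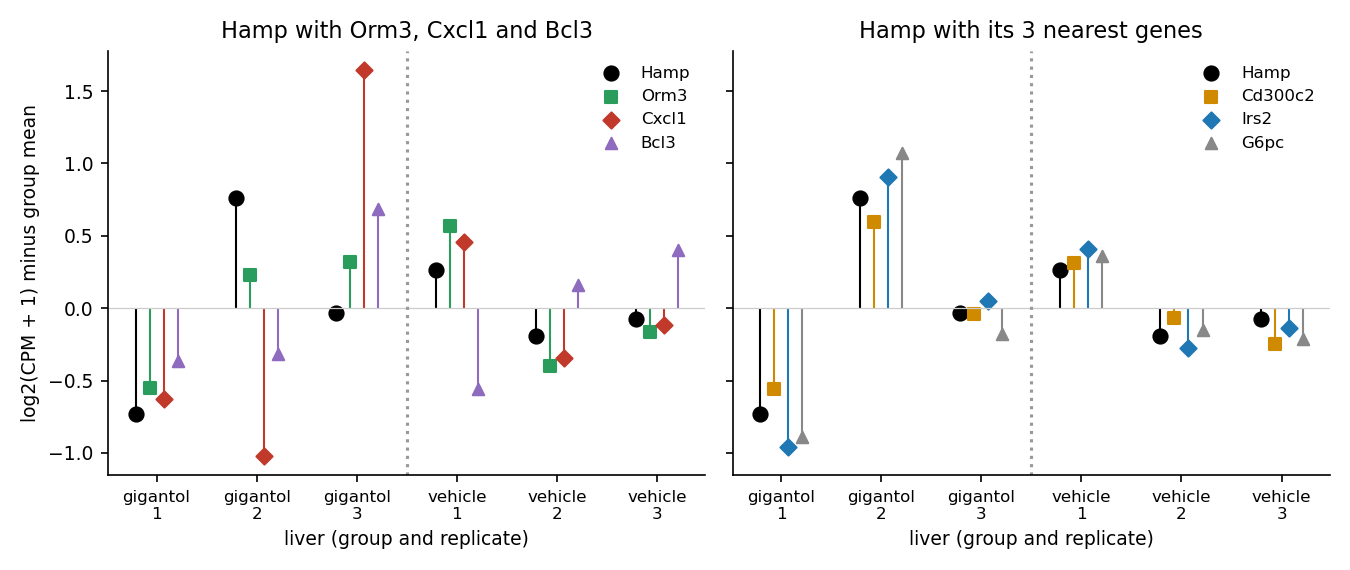
Deviation of log2(CPM + 1) from the group mean in each liver, for Hamp with Orm3, Cxcl1 and Bcl3 (left) and for Hamp with the 3 genes nearest to it (right); stems run from the group mean, and the dotted line separates the groups. Cxcl1 and Bcl3 are highest in gigantol replicate 3 and Hamp in gigantol replicate 2, as are Cd300c2, Irs2 and G6pc.

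The 3 genes nearest to Hamp were Cd300c2, a myeloid cell receptor, at 0.13, Irs2, the insulin receptor substrate, at 0.14, and G6pc, an enzyme subunit that frees glucose from its phosphate, at 0.17. Irs2 measured 4.71, 19.9 and 10.5 CPM in gigantol replicates 1 to 3 and 46.4, 28.6 and 31.5 CPM in vehicle replicates 1 to 3. G6pc measured 74.6, 294 and 123 CPM against 632, 443 and 425 CPM, in the same order of livers. Both therefore shared the gigantol order of Hamp, highest in replicate 2 and lowest in replicate 1, while their group means were lower with gigantol and that of Hamp was higher. Without gigantol replicate 2 the ratios of their means went from 0.329 to 0.214 for Irs2 and from 0.327 to 0.197 for G6pc. The ranking depended on the pseudocount. With 0.1 in place of 1 CPM, Cd300c2 remained and Irs2 and G6pc were replaced by Gm44231 and Arntl.

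The nearest genes of Scara5, Orm3 and Cxcl1 each shared a high liver with them. Those of Scara5 were Cyp4a32 (0.08), Osbpl3 (0.15) and Egr1 (0.19), all highest in vehicle replicate 1 and all with a lower gigantol mean. Without that liver the ratios of their means went from 0.448 to 0.918, from 0.335 to 0.605 and from 0.423 to 0.687. Those of Orm3 were Txnip (0.17), H2-T10 (0.22) and Depp1 (0.23), again highest in vehicle replicate 1 and, like Orm3, with lower gigantol means. With a pseudocount of 0.1, Txnip remained for Orm3. Those of Cxcl1 were the predicted genes Gm48415 (0.33) and Gm48416 (0.34) and the stress gene Ddit4 (0.37), all highest in gigantol replicate 3. Gm48415 and Gm48416 lie on chromosome 12, away from Cxcl1 on chromosome 5.

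Of 57 genes on a list of iron hormone, uptake, storage and export genes, 2 were analysed here, Hamp and Scara5, both with higher means. The others were not analysed here, among them the transferrin receptors, ferroportin and the ferritin chains. Of 38 genes of BMP and SMAD signalling, 2 were analysed here. Inhbe, the subunit of activin E, a TGF-beta family protein made by liver, measured 40.8, 31.7 and 44.4 CPM in gigantol and 17.7, 16.0 and 18.0 CPM in vehicle replicates 1 to 3. Its groups did not overlap, and the authors' deposited table gave an FDR of 2.20e-06. Within the gigantol group Inhbe was lowest in replicate 2, where Hamp was highest.

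Bmper, a secreted protein that binds BMPs, measured 0.235, 0.798 and 0.447 CPM in gigantol and 5.32, 0.587 and 0.824 CPM in vehicle replicates 1 to 3. Its groups overlapped, and the authors' deposited table gave an FDR of 0.320. The vehicle mean of 2.24 CPM rested on vehicle replicate 1 and was 0.706 CPM without it, against 0.493 CPM with gigantol. The SMAD target genes Id1, Smad6, Smad7 and Atoh8, which are read in liver beside Hamp, were not analysed here.

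Of 48 acute-phase plasma proteins, Orm3 alone was analysed here, so the serum amyloid A genes, haptoglobin, fibrinogens and the other orosomucoids give no value here. Of 29 genes of interleukin 6 and STAT3 signalling, 2 were analysed here. Bcl3, an atypical inhibitor of NF-kB induced by inflammation, measured 14.3, 14.8 and 30.6 CPM in gigantol and 5.84, 10.2 and 12.3 CPM in vehicle replicates 1 to 3. Its groups did not overlap, its FDR in the authors' deposited table was 0.247, and like Cxcl1 it was highest in gigantol replicate 3. In pattern Bcl3 stood at rank 138 of 200 from Hamp, at a distance of 0.69. Myc, a growth regulator that STAT3 can induce, measured 2.21, 7.32 and 2.48 CPM against 6.67, 9.93 and 11.3 CPM, with groups that overlapped. Without gigantol replicate 2 the ratio of its means went from 0.431 to 0.253.

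Of 60 chemokine, cytokine and NF-kB response genes, 3 were analysed here, Cxcl1 with a higher mean and Ccl5 and Ier3 with lower means. Ccl5, a chemokine for T cells, was at 0.689 ± 0.315 against 1.48 ± 0.281 CPM and Ier3, an immediate-early gene, at 0.586 ± 0.199 against 1.47 ± 0.251 CPM (SD, n = 3 each). The groups overlapped for neither, and 48.5% of all rows likewise had every gigantol liver below every vehicle liver. In the authors' deposited table none of the 3 had an FDR under 0.05, beside 25.9% of all rows. Their median log2 fold change there was −1.10, beside −1.15 for all rows.

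Over these acute-phase, interleukin 6 and chemokine lists, 6 genes were analysed here, 2 with higher means (Cxcl1 and Bcl3) and 4 with lower means. Of the 6, 1 (Myc) had the gigantol order of livers of Hamp, 2 (Orm3 and Cxcl1) had its vehicle order and 0 had both. Of the other 331 rows 23.3%, 18.7% and 3.02% did so. Orm3 missed the gigantol order of Hamp by 4.59 against 4.27 CPM, a gap within counting error, so the 0 is not firm. A wider set, chosen after the values were seen, is the 11 rows that the table annotates with the gene ontology term for inflammatory response. Of these, 4 had higher and 7 lower means, and in the authors' deposited table an FDR under 0.05 was reached upward by 1 (Hyal1, a hyaluronidase) and downward by 1 (Ppbp, a platelet chemokine). Of all rows 119 had higher and 213 lower means, and 10.2% and 15.7% reached that FDR upward and downward. Only Ifi202b among the 11 had the gigantol order of Hamp, with 0 CPM in gigantol replicate 1 and in all vehicle livers, and 0 of the 11 had both orders. The table annotates neither Hamp nor Orm3 with that term. It annotates Orm3 alone of its rows with the acute-phase response.

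Other list genes were set beside these. Of 20 scavenger receptors, 3 were analysed here. Marco, a macrophage receptor for bacteria, had means of 2.60 ± 1.08 with gigantol and 8.62 ± 0.360 CPM with vehicle (SD, n = 3 each). Cd36, which takes up fatty acids and oxidized lipoproteins, had 14.1 ± 3.56 and 31.1 ± 14.8 CPM. The groups did not overlap for any of the 3, beside 72.0% of all rows without overlap, and Scara5 was the one with a higher gigantol mean. Marco had an FDR of 0.000107 and Cd36 of 0.112 in the authors' deposited table.

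Of 28 genes of the stress hormone and immediate-early response, 6 were analysed here, all with lower means and none with overlapping groups. The 6 are Egr1, Ier3, Dusp1, Sgk1, G6pc and Igfbp1, and in the authors' deposited table the last 3 had an FDR under 0.05. Of all 332 rows 213 had lower means, 48.5% had every gigantol liver below every vehicle liver, and 15.7% were lower with an FDR under 0.05 there. The 6 had a median log2 fold change there of −1.27, beside −1.15 for all rows. Of the 6, Egr1 and Sgk1 had the order of livers of Hamp in both groups and G6pc in the gigantol group. Over all 7 lists, 16 genes other than Hamp were analysed here, of which 7 had the gigantol order of Hamp, 5 its vehicle order and 3 both (Bmper, Egr1 and Sgk1). Of the other 331 rows 23.3%, 18.7% and 3.02% did so. The orders of Bmper rest on few reads. Its gigantol livers were at 0.235 to 0.798 CPM, where 1 read is worth 0.0407 to 0.0471 CPM, and vehicle replicates 2 and 3 at 0.587 and 0.824 CPM. Egr1 and Sgk1 matched by small gaps. Egr1 was at 7.23 and 6.71 CPM in gigantol replicates 2 and 3. Sgk1 was at 21.4 and 20.5 CPM in gigantol replicates 3 and 1, and at 48.4 and 47.1 CPM in vehicle replicates 3 and 2. These gaps are near counting error, so the 3 with both orders is not firm.

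**Figure D5:**
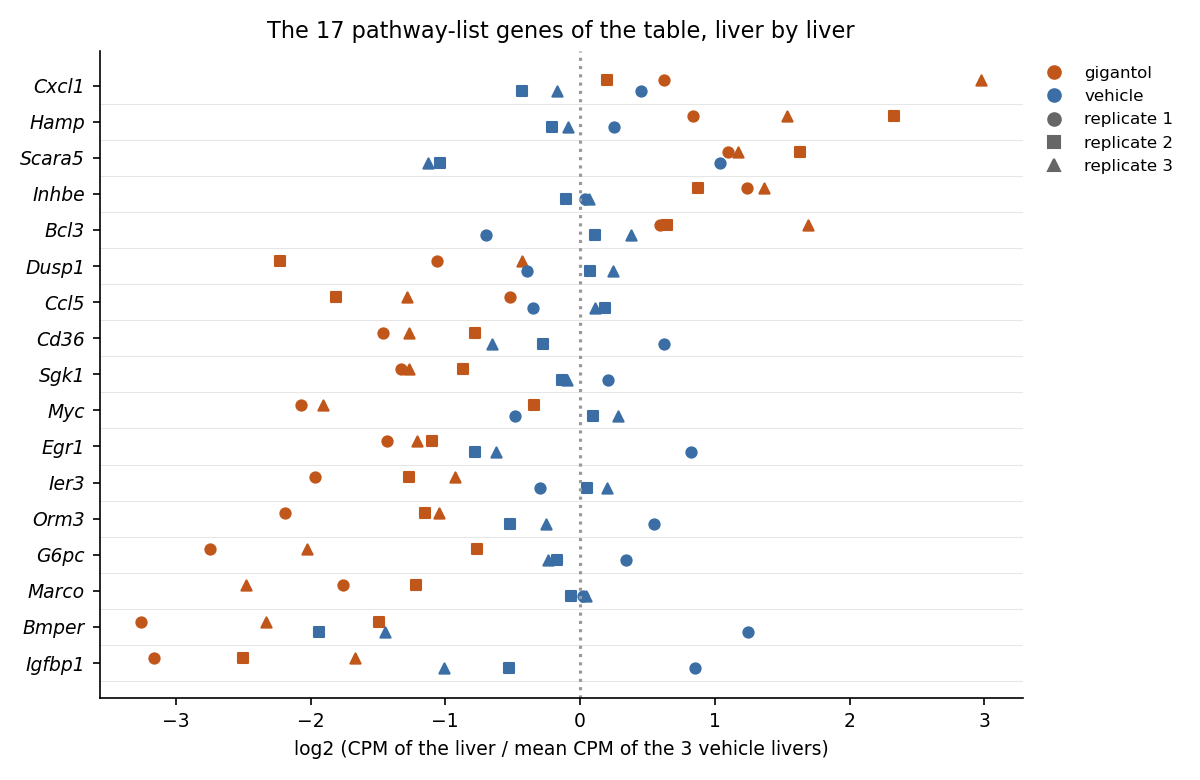
CPM of each liver over the mean of the 3 vehicle livers, as log2, for the 17 pathway-list genes analysed here, ordered by the authors' fold change; orange is gigantol, blue is vehicle, and the symbol gives the replicate. Hamp, Scara5, Cxcl1, Inhbe and Bcl3 lie to the right in the gigantol livers, and the other 12 genes, Orm3 among them, to the left.

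Markers of other cells were set beside the 4 genes as a description. Of 110 marker genes fixed, 13 were analysed here. The table holds only genes that differ between the groups, so a difference in these 13 was fixed by that selection. In bulk liver, fewer cells of a type and less RNA per cell cannot be told apart. Of 25 stellate cell and fibroblast markers 2 were analysed here, Lrat and Des, with a summed level of 6.81 to 11.9 CPM in gigantol and 13.1 to 24.5 CPM in vehicle livers, lower where Scara5 was higher. Of 14 Kupffer cell and macrophage markers Marco was analysed here, at 1.55 to 3.71 CPM in gigantol and 8.21 to 8.89 CPM in vehicle livers. Of 17 neutrophil and monocyte markers Mpo was analysed here, at 0.0940 to 0.407 CPM in gigantol and 0.391 to 5.06 CPM in vehicle livers, highest in vehicle replicate 1. Of 13 lymphocyte markers 3 were analysed here, with a sum of 0.565 to 0.939 CPM in gigantol and 2.00 to 2.27 CPM in vehicle livers.

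Of 11 red cell markers 6 were analysed here, with a sum of 349 to 633 CPM in gigantol and 554 to 1913 CPM in vehicle livers. The groups overlapped for 4 of these 6, beside 72.0% of all rows without overlap. No marker analysed here was at 0 in any liver. All 13 had lower gigantol means, as had 213 of the 332 rows. None of the sinusoidal endothelial or bile duct markers was analysed here. In the gigantol liver with the most Cxcl1, replicate 3, Mpo was at 0.407 CPM, its highest value in the gigantol group, and Marco at 1.55 CPM, its lowest value. The part of these cells in the values of Hamp, Scara5, Orm3 and Cxcl1 was not tested.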

How the data were processed

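The 4 genes and all lists were chosen with earlier results of these data known. Total liver RNA was freed of ribosomal RNA and sequenced as stranded libraries, per the labels' protocols. The submitters' processing notes name fastp, HISAT2 and DESeq2 1.16.1 without saying what each did, and the build GRCh38, though the gene IDs are mouse. The read counter is not given. The table the authors deposited holds CPM for 6 livers, a unit read from the values and absent from the header, beside the authors' own log2 fold changes, p-values and FDR. The CPM steps gave the depth: below 100 reads, every value of every library was whole within 0.1 reads. No count test was run.

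limma 3.58.1 in R 4.3.3 was fitted to log2(CPM + 1), with trend and robust moderation, for the 201 genes that reached 1 CPM in 3 or more livers, and was tested on simulated data. All 4 genes passed that filter, and their differences are given without p-values. On this scale the change of low genes is understated. Named were the 4 genes, the genes of 7 pathway lists (264 genes, 17 analysed here) and 8 marker lists (110 genes, 13 analysed here), and the 3 genes nearest to each of the 4. Alternatives covered the pseudocount, the filter, a replicate block and leaving out each liver.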

Additional observations from a re-analysis of the deposited data

How the results depend on the processing

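The differences of Hamp, Scara5, Orm3 and Cxcl1 kept their direction under pseudocounts of 0.1 and 0.5, without the filter, with a replicate block and without each liver, and moved by less than 1 SD of the livers. For Cxcl1 that SD, 1.06, is itself widened by gigantol replicate 3. Without this liver the Cxcl1 difference fell from 1.24 to 0.42 ± 0.507 (SE), so it was not stable. With 1 liver left out the limma differences ranged from 1.19 to 1.93 for Hamp, 1.17 to 2.13 for Scara5, −1.36 to −0.88 for Orm3 and 0.42 to 1.75 for Cxcl1. limma passed 111 of the 201 genes at an adjusted p under 0.05 (55.2%), a count that is circular in a preselected table. It was 169 without the filter, where more genes were tested, and 32 to 136 with 1 liver left out, lowest without vehicle replicates 2 (32) and 3 (35) and at 57 and 60 without gigantol replicates 1 and 3. With the replicate block it was 128. Replicate numbers were taken as names only. The deviations of same-numbered livers correlated at 0.13, 0.15 and −0.10 over 201 genes. Gigantol replicate 1 correlated best with its own number and gigantol replicate 3 with vehicle replicate 1 (0.10). Gigantol replicate 2 correlated equally with vehicle replicates 2 and 3 (0.15 each). With 3 livers per group and preselected genes, this check cannot exclude a pairing. With an FDR under 0.01 in place of 0.05, the authors' calls fell from 86 to 49 genes. Groups did not overlap for 147 rows with a mean of at least 1 CPM, in place of 239 of all rows, but fewer rows were counted there. With 1 liver left out the groups did not overlap for 246 to 300 rows, a choice made after seeing the data. Among rows with a mean of at least 5 CPM, 25 had the gigantol order of Hamp in place of 77, where fewer rows were counted. Of the 3 nearest genes, 1 remained for Hamp and 1 for Orm3 with a pseudocount of 0.1. The count tests with edgeR and the scaling that went with them were not run, because a further check of the CPM steps that a count test needs did not pass for the vehicle livers. Depth limits Orm3 most, whose lowest value stood on 44 reads.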

Other observations

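Cxcl1 lies on chromosome 5 with 2 other chemokine genes of the table, Ppbp and Pf4, which platelets carry. The gap from the end of Ppbp to the start of Cxcl1 is 121178 bases, and that from the end of Pf4 is 117858 bases. Ppbp was at 0.979 ± 0.461 CPM with gigantol and 5.61 ± 3.31 CPM with vehicle, and Pf4 at 0.862 ± 0.238 against 2.02 ± 0.206 CPM (SD, n = 3 each). Both had lower gigantol means, while that of Cxcl1 was higher. In the authors' deposited table Ppbp had an FDR of 0.000293 and Pf4 of 0.110. Without vehicle replicate 1 the vehicle mean of Ppbp was 3.70 CPM. These 2 genes were named after their values were seen.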
